A study of Mus musculus with 4 samples.

Results

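Subcluster 2 is 1 of the 10 subclusters into which the authors divided sorted group 2 innate lymphoid cells (ILC2s), and its members here are the 131 genes that their marker table lists for it, of 2629 genes that the table lists for any subcluster. A gene is called listed for a subcluster when the table holds a row for it there, and each row gives the share of cells in which the gene was detected, inside the subcluster and in all other ILC2s. The genes were chosen by the authors' own comparison of the same cells, so the shares below describe the subcluster and were not tested. The cells came from 4 libraries, each made from the pooled tissue of several 8-week-old wild-type BALB/c mice: liver after PBS, liver after rIL-33, lung after PBS and lung after rIL-33. Mice received recombinant IL-33 (0.5 µg) or PBS by intraperitoneal injection on each of 5 days. Cells were sorted as negative for lineage markers (CD3e, Ly6G, Ly6c, CD11b, CD45R, TER119 and TCRb) and positive for CD127, Thy1 and ST2, the IL-33 receptor, and were captured in droplets for sequencing of transcript 3′ ends. The table pools the 4 libraries, with no replicate and no depth behind any value. Liver and lung, or rIL-33 and PBS, therefore cannot be told apart in the values below. The paper reports that ILC2s from rIL-33-treated liver were enriched in certain subclusters, including the subcluster described here. The table does not hold that composition, so it was not tested.

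ILC2s are lymphocytes without rearranged antigen receptors that depend on the transcription factor GATA3. IL-33 released by damaged tissue activates them through ST2, and they answer with type 2 cytokines such as IL-13 and IL-5, which act on epithelium, macrophages and, in the liver, hepatocytes. Activated ILC2s can also carry inhibitory receptors best known from T cells.

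Subcluster 2 made up 18.3% ± 0.0222 (least-squares SE in percentage points) of the ILC2s, a size solved from the shares of 768 genes listed for at least 2 subclusters. In all 131 of its genes the share was larger inside the subcluster than outside, as in all 190 listings of subcluster 6 and in every listing of subclusters 1, 4, 8 and 9. The difference ran from 1.4 to 26.5 percentage points with a median of 16.1, and the median gene was found in 82.4% of its cells and in 61.5% of other ILC2s. Its genes covered a wide range of shares. At the upper end 49 genes were found in at least 90% of its cells, and 19 genes were found in under 50%. At the small end of the differences *Cd52*, a surface glycoprotein of lymphocytes, was found in 99.9% of its cells and in 98.5% of the others. The subcluster had few genes of its own: 2 were listed for no other subcluster (1.53% of its list, against 70.8% of all genes in the table), 31 were listed for 1 other and 42 for 2 others. No gene was listed for both subclusters 2 and 0, and 300 of the 2629 genes in the table were listed for subcluster 0.

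*Ctla4*, which encodes an inhibitory receptor that competes with CD28 for its ligands, had the largest difference of all 131 genes. The gene was detected in 55.4% of its cells and in 28.9% of ILC2s elsewhere. Of all ILC2s with *Ctla4* detected, 30.1% lay in subcluster 2, where 18.3% would lie if the gene were spread evenly. From low to high, the 5 subclusters that list the gene were 1 (50.9%), 2 (55.4%), 6 (55.6%), 4 (61.3%) and 8 (73.0%). Subclusters 2 and 6 were thus neighbours in this order, and the other 5 subclusters together came to 10.8%. *Ctla4* (GRCm38 chromosome 1, 60887000 to 60915832, plus strand, protein-coding, ENSMUSG00000026011) was thus found in more than 50% of cells in each subcluster that lists it. The 10.8% is 1 pooled value and does not give the share of any single one of the other 5. The subclusters that list *Ctla4* are the same as those that the paper reports as enriched for ILC2s from rIL-33-treated liver. *Il13* and *Plac8*, described below, were listed for other sets of subclusters. Whether these listings follow tissue or treatment was not tested. *Klrg1*, an inhibitory lectin-like receptor of mature ILC2s, was also listed for subcluster 2, so that 2 of the 9 checkpoint and costimulatory receptor genes in the table were (22.2%, against 4.98% of all genes in the table). For subcluster 6 it was 3 of 9 (33.3%, against 7.23%). *Klrg1* had a share of 85.6% inside subcluster 2 and 65.2% outside.

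**Figure D1:**
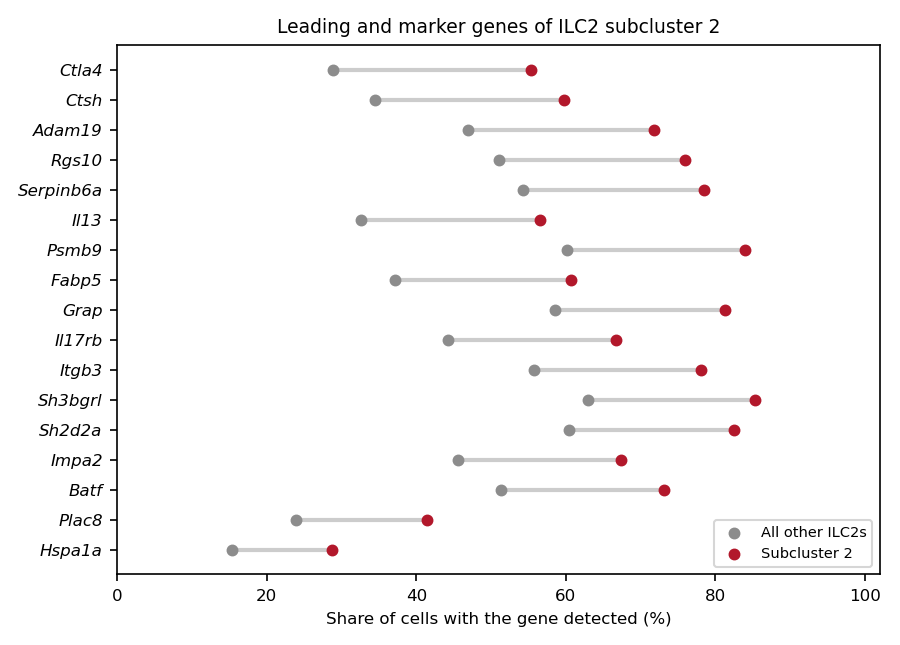
Share of cells with the gene detected (%, horizontal axis) for the 15 genes of subcluster 2 with the largest difference and for its marker genes that are reported here, one gene per row. Red points are subcluster 2 and grey points all other ILC2s, with 4 libraries pooled and no error bars because there are no replicates; *Ctla4* stands highest with 55.4% against 28.9%, and *Hspa1a* is found in the smallest shares, 28.7% against 15.3%.

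*Il13*, the cytokine whose release by liver ILC2s the study followed, ranked sixth by difference. Its share was 56.5% inside the subcluster and 32.6% outside, and 28.0% of all *Il13*-positive ILC2s lay there. From low to high, its listings were subclusters 1 (52.8%), 2 (56.5%), 7 (60.5%), 4 (62.1%) and 8 (69.7%). Subcluster 2 was thus above subcluster 1 and below the rest, and the 5 subclusters that do not list the gene together had it in 17.8% of cells. Subcluster 6 is 1 of these 5, and the pooled value does not give its own share. Of the 6 type 2 cytokine and effector genes in the table *Il13* was the only one listed for subcluster 2. *Il5*, the eosinophil growth factor, was listed for subclusters 7 and 9, and *Areg*, which encodes the epithelial growth factor amphiregulin, for subclusters 3, 7 and 8. *Il13* lies on chromosome 11, 53631324 to 53634702 (GRCm38, minus strand, protein-coding, ENSMUSG00000020383). Since the study asked how GATA3 acts on this gene, the 250 bases before its RefSeq start (chr11:53634703-53634952, minus strand, GRCm38.p6) are shown, with the letters AGATAA, one form of the GATA motif, in capitals. They occurred 1 time there on either strand, and 9.97% of 32536 mouse promoters of that length hold them. The letters TGANTCA, one form of the AP-1 motif, occurred 0 times (6.73% of promoters hold them). Other forms of either motif were not searched. The study itself found a JunB motif a short way upstream of the *Il13* start and reported JunB binding there by ChIP. The 0 thus covers this form of the letters alone. A match of letters does not show binding.
Il13: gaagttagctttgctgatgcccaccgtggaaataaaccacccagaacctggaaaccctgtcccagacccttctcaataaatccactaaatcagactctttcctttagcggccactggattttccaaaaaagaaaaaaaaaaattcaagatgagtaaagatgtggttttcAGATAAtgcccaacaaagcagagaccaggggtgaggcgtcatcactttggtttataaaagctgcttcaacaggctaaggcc

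*Plac8*, a small cysteine-rich protein first described in placenta, ranked 53 by difference and was found in 41.5% of cells against 23.9%. It was also listed for subclusters 4, 6, 7 and 8, with shares of 45.8%, 43.2%, 61.5% and 41.6%. Among these 5, subcluster 2 had the lowest share, next to that of subcluster 8.

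Of the fixed lists of AP-1 family and lineage transcription factors, subcluster 2 had *Batf*, *Rbpj* and *Tox2*. The lineage factors were 2 of 18 (11.1%, against 4.98% of all genes in the table) and the same 2 were listed for subcluster 6. *Batf*, an AP-1 family factor that pairs with JUN proteins, was found in 73.1% of cells against 51.3%. It was the only member listed for subcluster 2 of 7 AP-1 family genes in the table, and its other listings were subcluster 1 with 71.2% and subcluster 7 with 73.5%. These 3 subclusters also list *Il13*, but subclusters 4 and 8, with the highest *Il13* shares, do not list *Batf*. *Rbpj*, the DNA-binding partner of Notch, was found in 90.9% of cells against 73.8%. *Tox2*, of the HMG-box family, was found in 42.3% against 22.2%, and 29.9% of *Tox2*-positive ILC2s lay in subcluster 2. *Gata3* itself was listed for subclusters 0 and 3 alone, as was *Il1rl1*, which encodes ST2. Their absence from the list does not mean absence from the cells, since outside subcluster 0 *Gata3* was found in 89.9% and *Il1rl1* in 86.6% of ILC2s. Of 10 ILC2 core genes with a row in the table, subcluster 2 had 1 listed: *Il17rb*, a receptor subunit for IL-25, in 66.7% of cells against 44.2%. *Il1r2*, a decoy receptor for IL-1, was found in 29.2% against 16.3%, the lowest share of the 4 subclusters that list it.

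**Figure D2:**
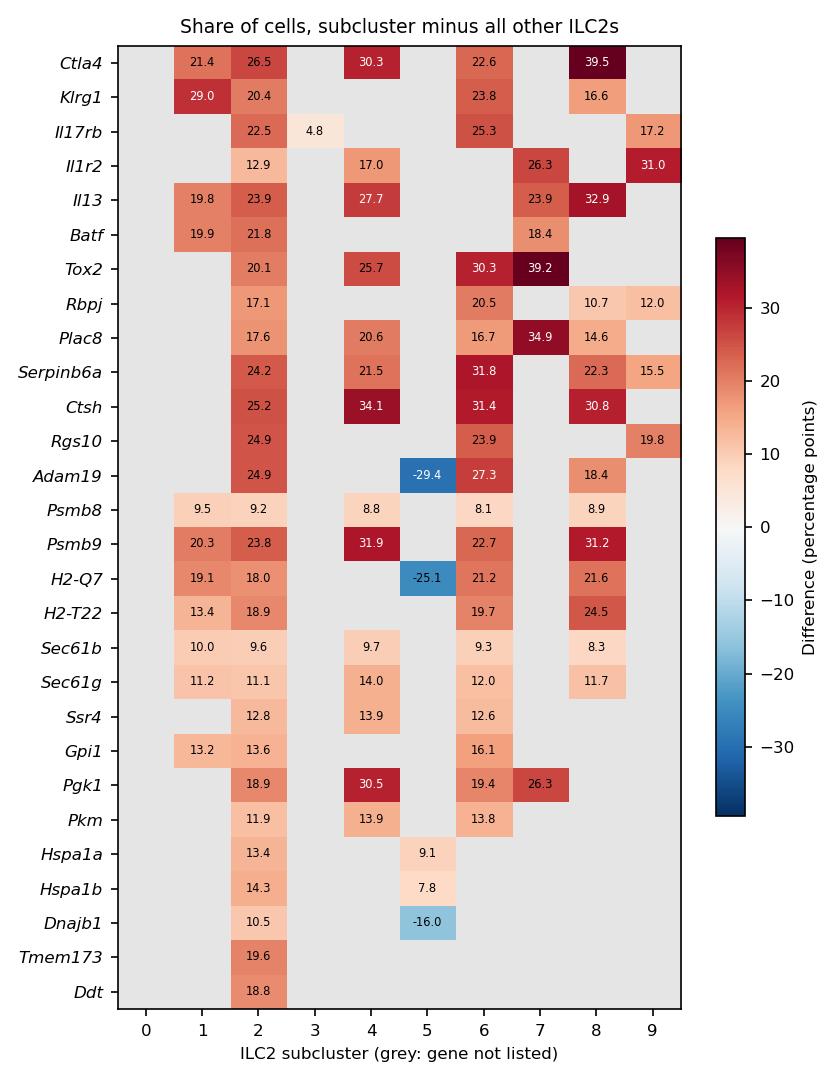
Difference in the share of cells between a subcluster and all other ILC2s (percentage points, colour and printed value) for genes of subcluster 2 named in the text, with genes in rows, the 10 subclusters in columns and grey where the table does not list the gene. Column 2 is filled throughout because it chose the genes; *Tmem173* and *Ddt* are filled there alone, and *Hspa1a*, *Hspa1b* and *Dnajb1* there and in column 5.

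Of all genes in the table, 4.98% were listed for subcluster 2, and the shares of each gene list are set beside that background. As there, a list's members count only if the table has a row for them in some subcluster. Glycolysis had 4 of 10 such genes listed (40.0%), with a median difference of 12.8 points. The same 4 were listed for subcluster 6 (40.0%, against 7.23% of all genes). *Pgk1*, a kinase that makes ATP in the pathway, was found in 84.0% of cells against 65.1%, and *Gpi1*, *Pkm* and *Gapdh* were found in 93.5%, 94.9% and 98.9% against 79.9%, 83.0% and 92.5%. The immunoproteasome and MHC class I list had 5 of 14 (35.7%), and subcluster 6 had the same 5 and *H2-D1* (42.9%). Of these *Psmb9* and *Psmb8*, catalytic subunits of the immunoproteasome that cuts peptides for MHC class I, were found in 84.0% against 60.2% and in 98.7% against 89.5%. The class I genes *H2-Q7*, *H2-T22* and *H2-K1* had differences of 18.0, 18.9 and 1.7 points. By contrast 1 of 24 proteasome subunits was listed (4.2%, *Psmb1*), as were 0 of 18 interferon response genes.

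Protein entry into the endoplasmic reticulum had 4 of 24 genes listed (16.7%), all of them also among the 6 listed for subcluster 6 (25.0%). *Sec61b* and *Sec61g*, subunits of the channel through which secreted proteins pass, were found in 98.5% against 88.9% and in 95.2% against 84.1%, and *Ssr4* and *Spcs2* in 95.6% against 82.8% and 98.4% against 92.9%. Translation factors had 4 of 27 (14.8%), all of them subunits of initiation factor eIF3: *Eif3e*, *Eif3f*, *Eif3h* and *Eif3k*, with differences of 6.7 to 10.6 points. The respiratory chain and ATP synthase list stood at background with 3 of 61 (4.9%). DNA replication and mitosis had 1 of 23 (4.3%): *Hmgb2*, found in 98.9% against 91.8%. The table held 0 ribosomal protein genes and 0 genes encoded by mitochondria. None was listed for subcluster 2 among the 11 chemokine receptor and exit genes, 6 NF-kB genes, 6 cytokine feedback genes, 4 cytotoxic genes, 3 TNF superfamily ligands and 2 MHC class II genes in the table.

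**Figure D3:**
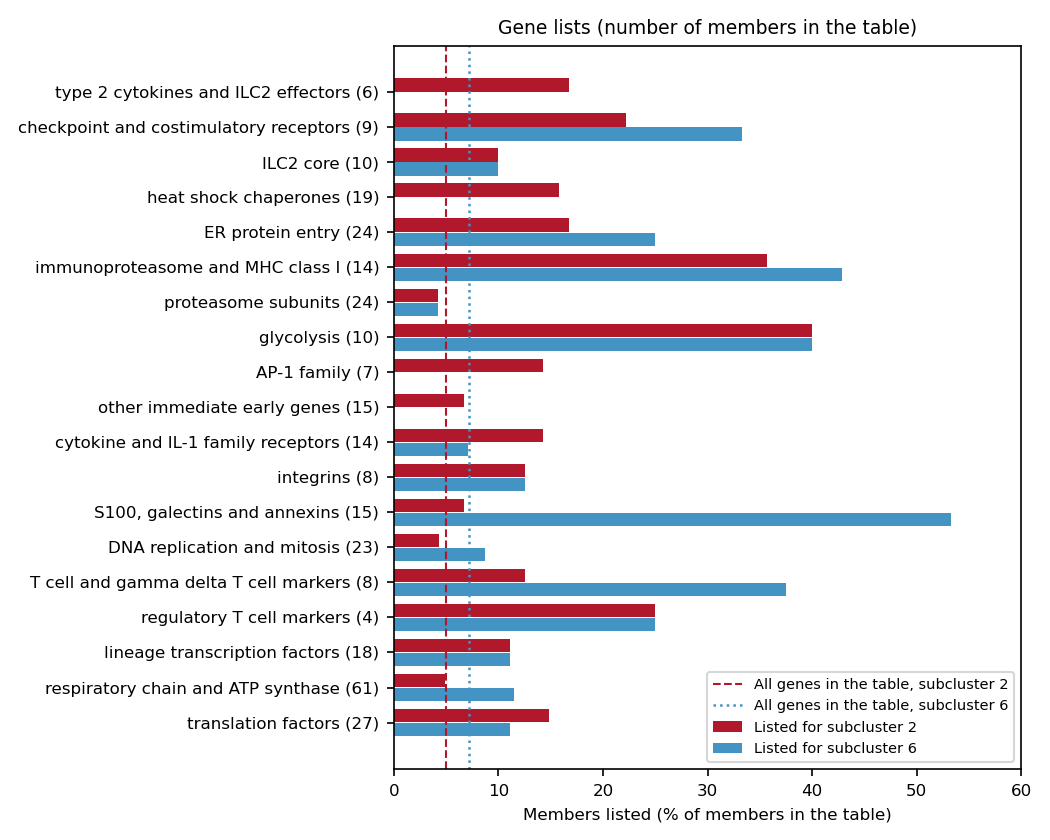
Members of each gene list that are listed for subcluster 2 (red bars) and subcluster 6 (blue bars), as a percentage of the members that are in the table (number in brackets), for the lists reported here with a member in either. Dashed and dotted lines give the share of all genes in the table, 4.98% and 7.23%; glycolysis stands at 40.0% for both, and the S100, galectin and annexin list at 6.7% for subcluster 2 against 53.3% for subcluster 6.

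Before the ILC2s were subclustered, the authors had removed cells with markers of other types, such as *Cd3* and *Cd45r*, which bears on every marker count here. Of 8 T cell markers with a row in the table, subcluster 2 had 1 listed (12.5%, against 4.98% of all genes), *Trbc2*, a constant region of the T cell receptor beta chain, in 87.2% of cells against 80.6%. *Trbc2* was thus found in most ILC2s of this table, and *Cd3e* was listed for subcluster 5 alone, at 32.0%. *Tcrg-C4*, a gamma chain constant region outside the marker lists, was found in 63.3% of cells of subcluster 2 against 50.5%. Of 4 regulatory T cell markers in the table *Ctla4* was the 1 listed (25.0%), and *Foxp3*, their defining factor, was listed for no subcluster. The NK cell and ILC1 list had 0 of 1, the B cell list 0 of 1, the myeloid and basophil list 0 of 3, and 0 hepatocyte or lung epithelium markers were in the table. In the authors' other table, which compares cell types among all sorted cells, 59 of the 131 genes appear. Of these 10 (16.9%) were listed for the type named ILC2, near the 14.1% of all genes in both tables. More of them were listed for each of 6 other types, among them proliferating cells (18, 30.5%, against 43.7% of all genes in both tables), the gamma delta T cells named gdT_TypeIII_CD163l1 (15, 25.4%, against 15.9%) and Treg (12, 20.3%, against 11%). Of the 12 listed for Treg, however, 5 were found in a larger share of Treg than of other cells and the rest in a smaller one. A smaller share need not mean lower mean expression, since the authors' fold changes are all above 0. The genes listed for ILC2 included *Il13*, *Il17rb*, *Klrg1* and *Rbpj*, whereas *Ctla4* was not listed for it.

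Subcluster 6 was nearest by its list. It held 3.72% ± 0.0198 of the ILC2s, so subcluster 2 was 4.92 times its size, and 190 genes (7.23% of the table) were listed for it. Both lists held 104 genes, 79.4% of the list of subcluster 2 and 54.7% of the list of subcluster 6. Each subcluster was compared with other ILC2s that include the other one, so these lists share most of their comparison cells. The shares inside the subclusters do not overlap in cells and can be set side by side. Over the 104 genes the share was larger in subcluster 6 for 100, equal for 2 and larger in subcluster 2 for 2, *Dkk3* (40.0% against 39.1%) and *Eif3f* (99.5% against 99.4%). The median difference, subcluster 2 minus subcluster 6, was -2.5 points, 83 genes lay within 5 points, and all 21 genes beyond that were higher in subcluster 6. A like direction was seen beside other subclusters, with the share larger in subcluster 4 for 32 of 35 genes listed for both, in subcluster 7 for 18 of 19 and in subcluster 8 for 38 of 48. Over the 62 genes shared with subcluster 1 it was larger in subcluster 2 for 28 and in subcluster 1 for 32. It was larger in subcluster 2 for 12 of 21 genes shared with subcluster 9, 4 of 5 with subcluster 3 and 9 of 9 with subcluster 5. The table gives no reads per cell for any subcluster.

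*Tox2* had the widest gap, with 42.3% of the cells of subcluster 2 and 55.0% of those of subcluster 6. *Serpinb6a*, an intracellular inhibitor of serine proteases, was found in 78.5% and 89.3%. *Ctsh*, a lysosomal cathepsin, was found in 59.7% and 69.4%, and *Ctla2b*, related to cathepsin propeptides, in 69.8% and 79.5%. These genes mark both subclusters but more of the cells in subcluster 6. *Bcl2l15*, of the BCL2 family, was next with 51.1% and 60.1%. The share of *Sh2d2a*, a T cell adapter protein listed for these 2 subclusters and no other, differed less, with 82.5% and 83.1%, and *Rgs10*, a brake on G protein signalling, had 76.0% and 78.7%, near the median gap.

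**Figure D4:**
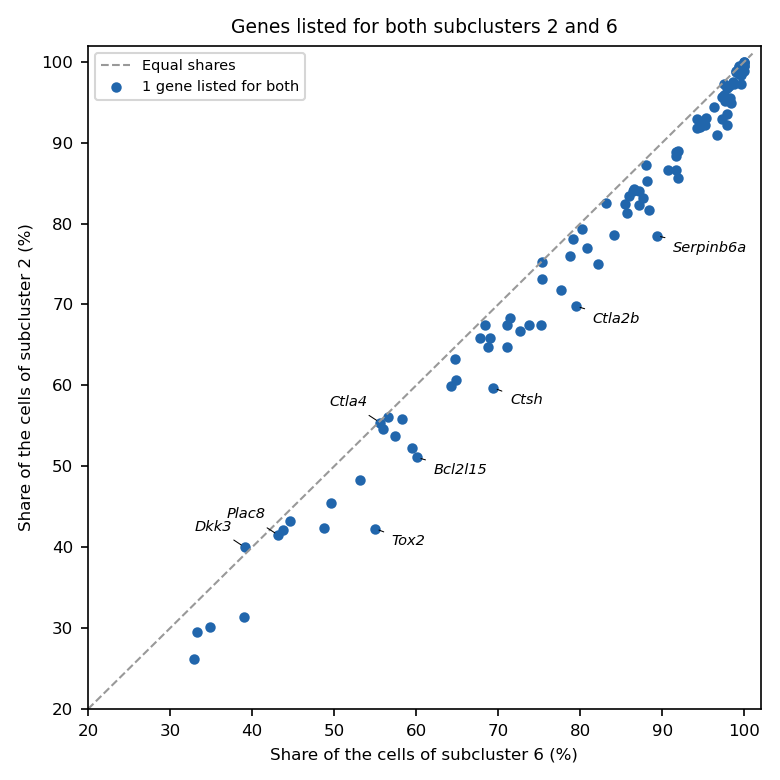
Share of the cells of subcluster 2 (%, vertical axis) against that of subcluster 6 (%, horizontal axis) for the 104 genes listed for both, one point per gene, with the dashed line marking equal shares and both axes starting at 20%. Points lie on or under the line for all but 2 genes, and *Tox2* (42.3% against 55.0%) and *Serpinb6a* (78.5% against 89.3%) lie farthest below it.

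In listings, subcluster 2 differed from subcluster 6 by 27 genes listed for the first and not the second, led by *Il13* and *Batf*. A missing listing does not give the share in subcluster 6, which can be lower, similar or untested. After these came *Tmem173*, which encodes the DNA-sensing adapter STING, in 61.7% of cells against 42.1% of other ILC2s, and *Sytl3*, a synaptotagmin-like protein of vesicle transport, in 58.9% against 39.5%. *Gpr171*, a G protein-coupled receptor, was found in 76.2% against 57.2%, and *Sema4d*, a semaphorin of lymphocytes, in 71.3% against 52.4%. *Sys1*, a Golgi membrane protein, was found in 76.6% against 57.7%, and *Prc1*, a microtubule-bundling protein of cell division, in 52.8% against 35.3%. The next was *Supt4a*, a subunit of a transcription elongation factor, with 92.8% against 76.7%. The 6 genes named here from *Sytl3* to *Supt4a* were all also listed for subcluster 1. So were 12 of the 27 and 62 of all 131 genes of subcluster 2 (13.8% of all genes in the table were). For subcluster 8 it was 10 of the 27 and 48 of the 131 (253 of all 2629 genes in the table). Sharing with subclusters 1 and 8 therefore did not set the 27 apart. *Tmem173* and *Ddt*, a relative of the cytokine MIF found in 67.2% against 48.4%, were the 2 genes listed for subcluster 2 alone. *Dusp1*, a MAP kinase phosphatase, was found in 83.7% against 74.2%, and *Rgs1*, a brake on chemokine receptors, in 95.6% against 84.8%. *Bbc3*, the pro-apoptotic gene also called Puma, was found in 28.7% against 15.9%.

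**Figure D5:**
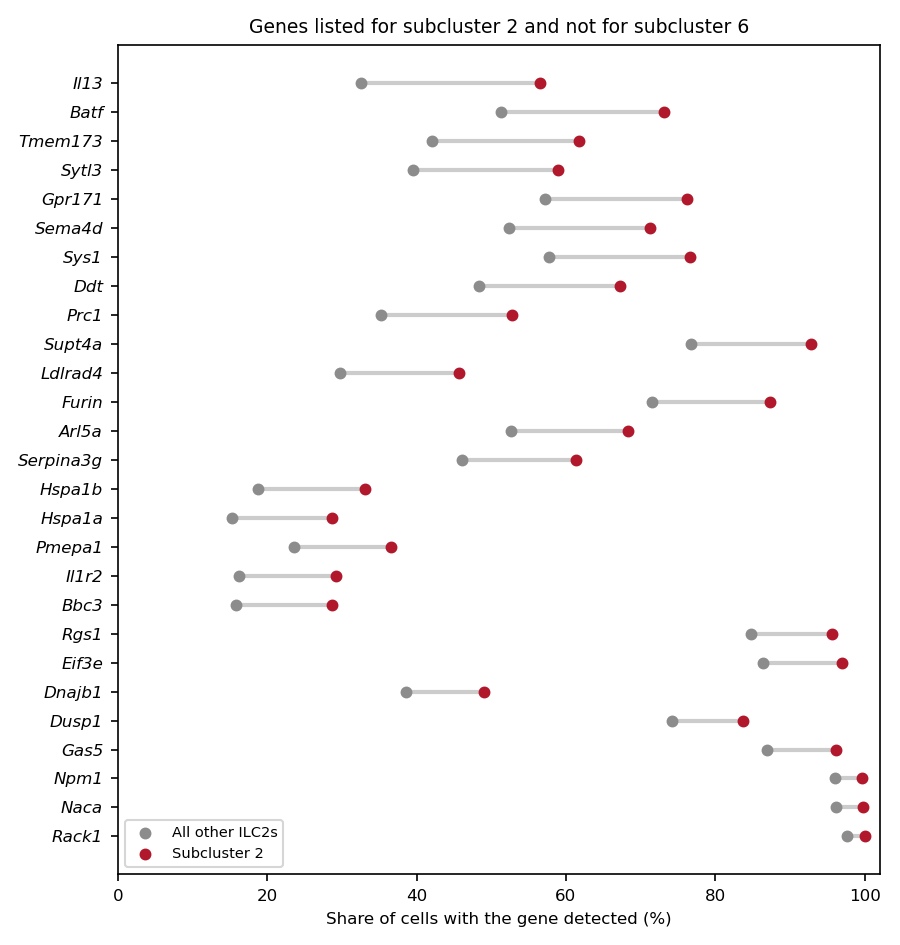
Share of cells with the gene detected (%, horizontal axis) in subcluster 2 (red) and in all other ILC2s (grey) for the 27 genes listed for subcluster 2 and not for subcluster 6, ordered by difference. *Il13* leads with 56.5% against 32.6%, and the heat shock genes *Hspa1b* and *Hspa1a* are among those found in the smallest shares, 33.1% and 28.7%.

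Of the gene lists, 4 had members listed for subcluster 2 and 0 for subcluster 6. In the type 2 cytokine (1 of 6), AP-1 (1 of 7) and other immediate early (1 of 15, or 6.7%) lists this was a single gene, too few to read a difference from, and in the heat shock chaperone list it was 3 of 19 genes (15.8%), against 4.98% of all genes for subcluster 2 and 7.23% for subcluster 6. *Hspa1a* and *Hspa1b* encode the inducible chaperone HSP70 and *Dnajb1* its HSP40 partner, proteins that refold others after stress. *Hspa1a* had shares of 28.7% inside and 15.3% outside, and 29.6% of *Hspa1a*-positive ILC2s lay there. *Hspa1b* was found in 33.1% against 18.8%. *Dnajb1* was found in 49.1% against 38.6%. The only other subcluster that listed any of them was 5, and it listed all 3. In subcluster 5 the share was 26.5% for *Hspa1a* and 28.9% for *Hspa1b*, both above its other ILC2s, but 25.2% for *Dnajb1*, below the 41.2% of its other ILC2s. The authors' fold changes are all above 0, so this smaller share of *Dnajb1* need not mean lower mean expression.

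*Hspa1a* (chromosome 17, 34969190 to 34972156, minus strand) and *Hspa1b* (chromosome 17, 34956436 to 34959238, minus strand) are neighbouring near-copies, and *Dnajb1* lies on chromosome 8, 83608193 to 83612653, plus strand. Of all windows of 89 bases in the *Hspa1a* transcript, the read length used, 49.5% also occur in *Hspa1b*, but 0% of those in its last 400 bases do, the end that these libraries read. Because these genes were listed for the same 2 subclusters, the 250 bases before each RefSeq start (GRCm38.p6) are shown, for *Hspa1a* chr17:34972157-34972406 and *Hspa1b* chr17:34959239-34959488 on the minus strand and, for the first of 2 *Dnajb1* starts, chr8:83607925-83608174 on the plus strand. Capitals mark the letters GAANNTTC, a minimal heat shock element, and CCAAT, read on both strands. The heat shock letters occurred 1 time in *Hspa1a* and 1 time in *Hspa1b* but 0 times in *Dnajb1*, and 6.72% of promoters hold them. The inverted form TTCNNGAA, also searched, occurred 0 times in each, and 7.19% of promoters hold it. CCAAT occurred 1 time in each, and 33.8% of promoters hold it. The promoters of the HSP70 copies were identical at 247 of 250 positions. No match in this window leaves the rest of the gene unread.
Hspa1a: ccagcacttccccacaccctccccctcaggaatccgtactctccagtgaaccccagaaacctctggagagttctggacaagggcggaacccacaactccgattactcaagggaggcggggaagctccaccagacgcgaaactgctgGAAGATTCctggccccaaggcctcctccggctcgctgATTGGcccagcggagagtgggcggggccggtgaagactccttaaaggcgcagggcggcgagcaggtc
Hspa1b: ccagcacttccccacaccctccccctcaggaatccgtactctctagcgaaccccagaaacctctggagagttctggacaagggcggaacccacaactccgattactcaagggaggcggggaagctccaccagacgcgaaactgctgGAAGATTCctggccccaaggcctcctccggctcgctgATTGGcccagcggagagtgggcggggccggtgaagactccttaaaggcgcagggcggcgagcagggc
Dnajb1: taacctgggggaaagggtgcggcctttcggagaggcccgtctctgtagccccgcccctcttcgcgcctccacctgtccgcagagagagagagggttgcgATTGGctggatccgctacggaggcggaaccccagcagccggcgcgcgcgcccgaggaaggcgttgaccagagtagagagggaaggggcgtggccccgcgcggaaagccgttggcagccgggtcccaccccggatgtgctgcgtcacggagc

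In the other direction 86 genes were listed for subcluster 6 and not for subcluster 2, and 27 of them for subcluster 6 alone. The group that stood out by count was S100 proteins, galectins, annexins and related genes, with 8 of 15 listed for subcluster 6 (53.3%) and 1, *S100a11*, for subcluster 2 (6.7%). *Anxa2*, a membrane-binding annexin, had the largest difference, 76.4% of the cells of subcluster 6 against 48.1% of other ILC2s. *Lgals3* and *Lgals1*, galectins that bind sugar chains, were found in 97.5% and 99.8%, and *Capg*, an actin-capping protein, in 80.4%. *Pdcd1*, the inhibitory receptor PD-1, had shares of 56.6% inside subcluster 6 and 33.7% outside it and was not listed for subcluster 2. Both inhibitory receptor genes of subcluster 2, *Ctla4* and *Klrg1*, were listed for subcluster 6 as well. *Degs1*, a ceramide-forming enzyme listed for subcluster 6 alone, was found in 74.8% against 48.8%. The remaining leaders were *Arhgap9*, *Ccdc50*, *Higd2a*, *Sdf2l1*, *Cela1*, *Dap* and *Vmp1*, with differences of 19.8 to 20.8 points. *Cd3g* and *Tcrg-C1*, T cell receptor complex genes, were listed for subcluster 6, at 46.1% and 40.1%, and not for subcluster 2.

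Of the 15 genes with the largest differences in subcluster 2, the others were spread over several functions. *Adam19*, a membrane protease, was found in 71.8% of cells against 46.9%. *Fabp5*, a fatty acid carrier, was found in 60.7% against 37.2%, and *Itgb3*, an integrin beta chain, in 78.1% against 55.7%. The adapter gene *Grap* was found in 81.3% against 58.6%. *Sh3bgrl*, of a thioredoxin-like family, had 85.3% against 63.0%, and *Impa2*, an inositol phosphatase, 67.4% against 45.6%. All 6 of these were also listed for subcluster 6, with shares there between 64.9% and 88.2%.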

How the data were processed

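Single-cell libraries of sorted ILC2s (4 groups, 1 library each, no replicates) had been aligned to mm10 in Cell Ranger by the authors, cells with few detected genes were removed, doublets and dead cells were gated out by flow cytometry, cells with markers of other types were excluded before subclustering, and cells were scaled, log transformed and clustered in Seurat. The authors deposited 2 tables from FindAllMarkers over all libraries pooled. Their columns of log2 fold changes, all above 0, and p-values are the authors' own comparisons and were not used. The deposited share of cells (a fraction to 3 decimals) inside a cluster and in all other cells was used. Depth was unknown, so no counting interval was given, and no test was run. No doublet caller could be run without cells.

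Subcluster sizes were solved by least squares from the condition that the share in all ILC2s is 1 number per gene, for genes listed for at least 2 subclusters, and the solver was tested on simulated data. The root mean square residual was 0.000204 and sizes summed to 100.2%. From them came the percentage of gene-positive ILC2s that lie in subcluster 2 and the share in the subclusters that do not list a gene. Rounding and size errors amount to at most 0.21 and 0.26 points for genes of subcluster 2. Python 3.11.15, numpy 2.4.6, pandas 2.3.3 and GENCODE M21 were used.

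Genes named were the given markers (1 is not reported here), the 15 largest differences, the 10 largest in each direction between subclusters 2 and 6, the 5 widest gaps over genes listed for both, genes listed for subcluster 2 alone, and members of 34 gene lists. *Cd52*, *Sh2d2a* against subcluster 6, *Rgs1*, *Bbc3* and *Tcrg-C4* were chosen after their values were seen. Members and lists were chosen with earlier results of these data known. Alternatives were stricter differences in share and other fits of size. One promoter per gene was shown; all 4 genes looked up for printing were matched in RefSeq.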

Additional observations from a re-analysis of the deposited data

How the results depend on the processing

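Lists with 0 genes listed for subcluster 2 could not change under a stricter difference. At 5 points the genes listed for subcluster 2 alone went from 2 to 3, the respiratory chain list from 3 to 2 and the immunoproteasome and MHC class I list from 5 to 4. With a difference in share of at least 10 points 5 genes were listed for subcluster 2 alone, *Tmem173*, *Ddt*, *Hspa1a*, *Hspa1b* and *Dnajb1*, because the smaller or negative differences of the heat shock genes in subcluster 5 dropped out. Over genes whose shares in subclusters 2 and 6 differ by at least 5 points, 21 had the larger share in subcluster 6, fewer by construction, and 0 had the larger share in subcluster 2. The list of subcluster 2 held 105 genes at a difference of 10 points, and its size was 18.3% under each of 4 other fits. No paired analysis was possible because the tables pool all libraries and hold no group with a replicate. The tables give no depth per cell and no cell numbers, and variation between animals could not be measured.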

Other observations

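The genes below were named after their values were seen and belong to no fixed list. *Zfas1* and *Gas5*, noncoding hosts of small nucleolar RNAs, were found in 75.2% and 96.1% of its cells against 54.6% and 86.9% of the other ILC2s. *Npm1*, *Naca* and *Rack1*, which act in ribosome assembly and on translating ribosomes, had differences of 3.7, 3.6 and 2.4 points, with shares of at least 99.7% inside. *Gas5*, *Npm1*, *Naca* and *Rack1* were not listed for subcluster 6. *Plin2*, which coats lipid droplets, was found in 75.0% against 55.7%, and *Acot7*, an acyl-CoA thioesterase, in 81.7% against 63.2%. Both were listed for subcluster 6 as well, where they were found in 82.2% and 88.4% of cells.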
